A study of Mus musculus with 76 samples.

Results

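The heat shock proteins and chaperones described here are 58 of the 9235 genes with values in murine atrioventricular (AV) node macrophages. They were chosen by name alone, with letter case ignored: every symbol that begins with HSP and one of the letters A, B, D, E or H or a digit, every J protein of the DNAJA, DNAJB and DNAJC series, and the numbered subunits of the cytosolic chaperonin CCT. The rule itself uses the names and no measured value, but it reaches only genes in the deposited list, each of them above 0 in at least 5 cells. The cells came from WT C57BL/6J mice, and the AV node is the part of the heart's conduction system that delays and relays each atrial impulse. Hearts were perfused with ice-cold PBS, the dissected node was digested with collagenases, DNase and hyaluronidase for 20 minutes at 37 °C, and macrophages were sorted by CD45, CD11b, F4/80, Ly6C and lineage markers. Single cells were captured on a microfluidic chip and sequenced as 76 libraries, and all of them went through the same digestion and sort, so no undigested or otherwise treated cell is at hand as a control. The labels name no animal, chip or day. All cells therefore form 1 sample of 1 group, and every value and correlation below is a description of these cells without a p-value.

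Values are counts per 1000000 mapped reads of the genes listed (CPM), and 1 value is 1 gene in 1 cell. Estimated depth per library was 259558 reads at the lowest, 2125100 at the median and 6293221 at the highest, and each library had between 2324 and 4382 genes above 0. The libraries of transcriptomes 13 and 19 had a Pearson's r of 0.978 in log2(CPM + 1), while the highest r of the other 2849 pairs was 0.421, so they were averaged and counted once, which leaves 75 cells. Of 12 macrophage marker symbols 11 had values, and the one left over, Adgre1, names the same gene as Emr1, which had values. Each of the 11 was above 0 in at least 50% of cells, among them Lyz2, Csf1r and Cd68. Of 12 cardiomyocyte markers 4 had values, and their summed level ran from 0 to 821.8 CPM with a median of 1 CPM. Endothelial and fibroblast lists had 1 measured marker each (Eng, Gsn), and Gsn was above 0 in 40 cells.

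Chaperones bind unfolded or partly folded proteins and keep them from clumping until they reach their final shape. HSP70 proteins hold short greasy stretches of a client under the control of J proteins, which bring clients and trigger ATP use, and of HSP110 proteins, which exchange the nucleotide. HSP90 finishes the folding of kinases and receptors, CCT folds actin and tubulin inside a closed chamber, and BiP and GRP94 do the corresponding work in the endoplasmic reticulum (ER). A subset is induced when the transcription factor HSF1 binds its elements after heat or other proteotoxic stress. Fos and Egr1 are immediate early genes, transcribed within minutes of many stimuli.

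The promoters of stress-inducible members are shown because elements bound by HSF1 are what is known to make these genes inducible. Each is the 250 bases before the annotated start, from RefSeq on build GRCm38.p6, read 5′ to 3′ on the strand of the gene. Capitals mark a pair of facing repeats, GAANNTTC or TTCNNGAA, the core of a heat shock element.
Hspa1a, chr17:34972157-34972406, minus strand: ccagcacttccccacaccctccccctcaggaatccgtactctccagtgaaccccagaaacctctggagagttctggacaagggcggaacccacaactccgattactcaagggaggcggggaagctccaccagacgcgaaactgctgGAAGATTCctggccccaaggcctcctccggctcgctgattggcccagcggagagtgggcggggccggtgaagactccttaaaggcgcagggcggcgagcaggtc
Hspa1b, chr17:34959239-34959488, minus strand: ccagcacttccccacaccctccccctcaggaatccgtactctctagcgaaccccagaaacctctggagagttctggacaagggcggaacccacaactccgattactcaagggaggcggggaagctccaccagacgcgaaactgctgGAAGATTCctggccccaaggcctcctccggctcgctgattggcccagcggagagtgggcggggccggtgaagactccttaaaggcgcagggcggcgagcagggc
Hsph1, chr5:149636337-149636586, minus strand: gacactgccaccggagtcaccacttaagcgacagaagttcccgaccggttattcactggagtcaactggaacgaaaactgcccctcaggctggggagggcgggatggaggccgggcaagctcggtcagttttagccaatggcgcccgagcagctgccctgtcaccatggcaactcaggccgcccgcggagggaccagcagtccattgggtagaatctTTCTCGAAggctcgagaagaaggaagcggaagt
Dnajb1, chr8:83607925-83608174, plus strand: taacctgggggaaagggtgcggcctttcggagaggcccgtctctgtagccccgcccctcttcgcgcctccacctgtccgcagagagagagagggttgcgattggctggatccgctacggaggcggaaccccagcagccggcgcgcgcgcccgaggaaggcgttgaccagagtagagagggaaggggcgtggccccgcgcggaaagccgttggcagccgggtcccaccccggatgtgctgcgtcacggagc
Hspe1, chr1:55087898-55088147, plus strand: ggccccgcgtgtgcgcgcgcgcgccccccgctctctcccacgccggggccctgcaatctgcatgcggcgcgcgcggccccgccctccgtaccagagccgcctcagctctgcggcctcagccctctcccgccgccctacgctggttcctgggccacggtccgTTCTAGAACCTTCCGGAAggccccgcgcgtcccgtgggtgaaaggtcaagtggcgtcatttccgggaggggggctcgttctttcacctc

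Hspa1a and Hspa1b, the neighbouring genes of inducible HSP70, differed in 3 of these 250 bases, and both held GAAGATTC beginning 104 bases before the start. In Hsph1 the pair TTCTCGAA began 33 bases before the start. Hspe1, which encodes the mitochondrial cochaperonin HSP10 and was added to the printed set after its letters were seen, held 3 overlapping pairs that begin 89, 84 and 79 bases before its start. The printed window of Dnajb1 held 0 pairs, which says only that these letters are not in it. Of the 58 members 46, Hsp90aa1 not among them, had a RefSeq promoter, with 59 promoters between them. Each promoter has 300 bases including 50 after the start. A pair of repeats in either orientation was in 25.4% of those 59, in 15.1% of all 32851 RefSeq promoters and in 12.1% of the promoters of genes with values here. At least 3 facing repeats in a row, which contain the pair, were in 6 of the 59 member promoters, beside 0.603% of all promoters. Those 6 belong to Hsph1, Hspd1, Hspe1 and Dnajb6, and in Hsph1 the repeats lie outside the printed window. Only exact letters were counted, so an element with altered letters would be missed. Hspd1 and Hspe1 are known to share a promoter that reads both ways, so they do not count as independent cases. The CCAAT box (CCAAT, either strand) was in 42.4% of member promoters and 37.4% of all, and the GC box (GGGCGG, either strand) in 79.7% and 35.7%, the latter share being 62.9% among genes with values.

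A few chaperones carried most of the chaperone RNA. Members together took 1.21% ± 0.551 of the CPM of a cell (SD, n = 75), from 0.379% to 2.84% with a median of 1.08%. Hsp90ab1, Hspa5, Hspa8 and Hsp90b1 made up 62.2% ± 17.0 of that (SD, n = 75). Of the 58 members, 21 were above 0 in at least 50% of cells (36.2%), beside 23.9% of all genes with values. At a threshold of 10 CPM, 9 members reached that share of cells, beside 8.88% of all genes. The other 37 members had a median of 0, which was less frequent among members than among all genes, as the shares at 50% of cells show. Of all 58, the 4 abundant ones included, 30 members reached 1000 CPM in at least 1 cell. How many of all genes did so was not counted. Weak values were common too, since 38.5% of the member values above 0 lay below 10 CPM, beside 45.7% for all genes. A cell had 26.0 ± 5.47 members above 0 and 16.0 ± 4.31 at 10 CPM or more (SD, n = 75). The first of these counts followed the number of genes detected in the cell (Spearman's rho 0.68 over 75 cells) more closely than the second (rho 0.47). Whether a 0 means that a cell lacked the transcript or that it was not read was not tested.

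**Figure D1:**
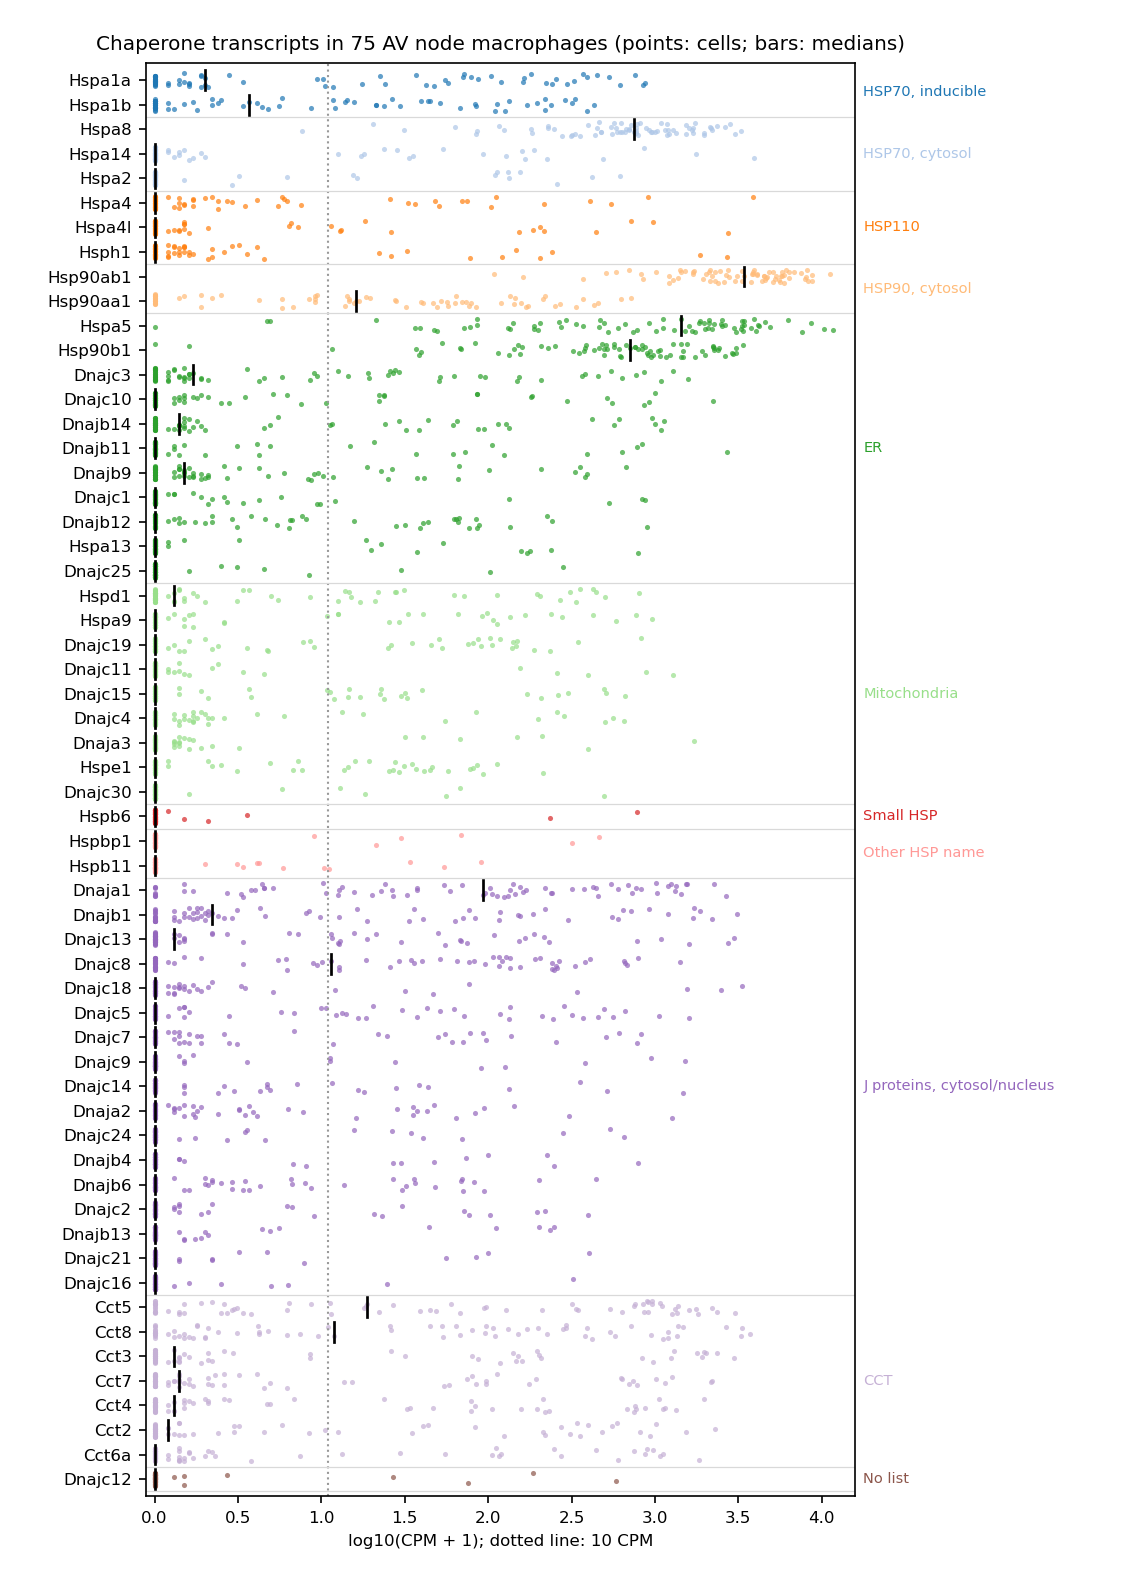
Level of each of the 58 chaperone genes in each of 75 cells, as log10(CPM + 1); a point is a cell, a bar the median, colours and side labels give the group, and the dotted line is 10 CPM. Hsp90ab1, Hspa5, Hspa8 and Hsp90b1 are the rows whose points crowd on the right, while most other rows have their median at 0 and a long tail of single cells.

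Cytosolic HSP90 was the most abundant chaperone of these macrophages and came almost entirely from 1 of its genes. Hsp90ab1, the constitutive HSP90 beta, ran from 107.3 through a median of 3422 to 11190 CPM and was at 10 CPM or more in all 75 cells. Its mean was 3783 ± 2443 CPM, and 67 cells exceeded 1000 CPM. Hsp90aa1, the stress-inducible HSP90 alpha, ran from 0 through 15.2 to 722.6 CPM (mean 80.6 ± 143, SD, n = 75), with 43 cells at 10 CPM or more and no cell at 1000 CPM. Divided by exon length, Hsp90ab1 stood at 1501 ± 969 CPM per kb and Hsp90aa1 at 23.8 ± 42.2 CPM per kb (SD, n = 75), and Hsp90ab1 was the higher in 74 of 75 cells. The levels of the pair were nearly unrelated over cells (rho 0.07).

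Constitutive cytosolic HSP70 was also present throughout. Hspa8 (HSC70, the housekeeping HSP70) ran from 6.7 through 752.3 to 3297.9 CPM, with a mean of 945 ± 759 CPM (SD, n = 75), and 74 cells had at least 10 CPM. Hspa14, a ribosome-associated HSP70, was above 0 in 28 cells, and Hspa2, best known from the testis, in 14. Of this group Hspa1l was not analysed here. Per kb of exon the order of the members began with Hsp90ab1, Hspa5 (534 ± 630), Hspa8 (395 ± 317), Hsp90b1 (343 ± 315) and Cct5 (225 ± 361). Hsp90ab1 was the highest member per kb in 51 of 75 cells and lay above Hspa5 in 63, above Hspa8 in 65 and above Hsp90b1 in 67. The places of Hspa5, Hspa8 and Hsp90b1 did not differ beyond the spread between cells: Hspa5 exceeded Hspa8 in 39 cells, and Hspa8 exceeded Hsp90b1 in 43.

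Inducible members were at 10 CPM or more in some cells, between 0 and 10 CPM in others and at 0 in the rest. Values between 0 and 10 CPM were found in 29 cells for Dnajb1, 26 for Hsph1, 20 for Hspa1a, 18 for Hspa1b and 15 for Hsp90aa1. Hspa1a ran from 0 through 1.0 to 870.7 CPM (mean 101 ± 200), and Hspa1b from 0 through 2.7 to 430.3 CPM (mean 52.1 ± 99.5, SD, n = 75 for both). Each was at 10 CPM or more in 31 cells, but only 17 cells had both, 14 had Hspa1a alone, 14 had Hspa1b alone and 30 had neither. The rho between them was 0.27. Their values are uncertain as a split between copies, because 58.8% of the 50-base windows of the Hspa1a transcript recur exactly in Hspa1b and 62.3% of those of Hspa1b recur in Hspa1a, and no source used here says how reads that fit both were counted.

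Dnajb1, the J protein HSP40 that partners inducible HSP70, ran from 0 through 1.2 to 3089.8 CPM, with a mean of 226 ± 570 CPM (SD, n = 75). It was at 10 CPM or more in 28 cells (95% exact Clopper-Pearson interval 26.4% to 49.3% of cells, which covers the sampling of cells only) and at 1000 CPM or more in 6. Hsph1 (HSP105, an HSP110 nucleotide exchange factor) was rarer, with 36 cells above 0, 10 cells at 10 CPM or more and a range from 0 through 0 to 2691.8 CPM. The pair of cells highest in Hsph1, at 2691.8 and 1867.6 CPM, held 49.4% and 34.3% of all its CPM, so its mean of 72.7 CPM says little about the other cells. Its relatives Hspa4 and Hspa4l were above 0 in 37 and 26 cells. Counting Hspa1a, Hspa1b, Hsp90aa1, Hsph1 and Dnajb1 at 10 CPM or more, 8 cells had none of the 5, 18 had 1, 28 had 2, 16 had 3, 4 had 4 and 1 had all 5. Every number from none to all 5 thus occurred, and this count does not show whether the members go together in a cell. Hspb1, the small heat shock protein HSP27, was not analysed here.

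Resident chaperones of the ER were the second strong group. Hspa5 (BiP, the ER HSP70) ran from 0 through 1431.9 to 11746.6 CPM, mean 2005 ± 2364, and 72 cells had at least 10 CPM. Hsp90b1 (GRP94, the ER HSP90) ran from 0 through 705.6 to 3367.5 CPM, mean 969 ± 890 (SD, n = 75), with 73 cells at 10 CPM or more. Their J partners were patchy: Dnajc3 (P58IPK) reached 10 CPM in 27 cells, Dnajb9 (ERdj4) in 16, Dnajc10 (ERdj5, a disulfide reductase) in 15 and Dnajb11 (ERdj3) in 12. All 11 members of this group had values, 5 were above 0 in at least 50% of cells, and only Hspa5 and Hsp90b1 were at 10 CPM in that many.

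Mitochondrial chaperones were measured in fewer cells. Hspd1 (HSP60, the chaperonin of the matrix) was at 10 CPM or more in 23 cells (mean 57.5 ± 144 CPM), Hspa9 (mortalin, the matrix HSP70) in 19 (55.8 ± 166 CPM) and Hspe1, whose promoter is shown above, in 21 (15.2 ± 33.8 CPM; SD, n = 75 for each). Dnajc19, a J protein of the import motor, was at that level in 21 cells (41.0 ± 111 CPM) and Dnajc11, found with the inner membrane scaffold, in 5 (39.9 ± 186 CPM). Among the 9 members with values, Hspd1 alone was above 0 in at least 50% of cells. Hspd1 and Hspe1 act as 1 machine and share their promoter, yet their rho over cells was 0.20, and 10 cells had both at 10 CPM or more. That rho was the highest of the 21 pairs in this group. Hspd1 and Hspe1 have 5 and 7 named pseudogenes in the reference annotation, so reads could have been lost or gained between copies.

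The list named J proteins of the cytosol and nucleus had the most members, 17 with values of 25 listed. It took in most J proteins outside the ER and mitochondrial lists, including some that act at membranes, so it is no strict location. Dnaja1, a general HSP70 partner, ran from 0 through 92.8 to 2673.8 CPM (mean 342 ± 559, SD, n = 75) and was at 10 CPM or more in 53 cells. Dnajc8, a J protein tied to splicing, was at that level in 38 cells, and Dnajc13, which acts on endosomes, in 25. The remaining 13 apart from Dnajb1 were at 10 CPM or more in 2 to 26 cells.

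All CCT subunits work in 1 ring-shaped complex in equal number, but single cells rarely showed the whole set of transcripts. Cct5 ran from 0 through 17.7 to 3039 CPM (mean 416 ± 668), and Cct8 from 0 to 3716.9 CPM (mean 364 ± 787, SD, n = 75 for both). They were at 10 CPM or more in 42 and 39 cells, and Cct3, Cct7, Cct4, Cct2 and Cct6a in 18 to 23. Of the 7 subunits covered by the rule, no cell had all at 10 CPM, 1 had 6, 9 had 5, and 22 cells, the most frequent case, had 2. Tcp1, the first subunit, falls outside the naming rule and was above 0 in 56 cells and at 10 CPM or more in 34.

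Of 7 small heat shock proteins only Hspb6, a protein of muscle, had values, and it was above 0 in 6 cells, at 783 and 233.2 CPM in the highest and under 3 CPM in the rest. The 4 measured cardiomyocyte markers summed to 0 to 242 CPM with a median of 4.4 in those 6 cells, and to 0 to 821.8 CPM with a median of 0.9 in the other 69. The cell at 233.2 CPM had 0 CPM of all 4 markers. The part of other cells' RNA in these values was not tested.

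Correlations between chaperone genes over cells were mostly weak. Among the 42 members above 0 in at least 20 cells, the median rho of 861 pairs was 0.04, with a range from -0.36 to 0.38. Over all 11212480 pairs of genes at the same threshold the median was 0.02. A rho of at least 0.3 was reached by 15 member pairs (1.74%), beside 0.913% of all pairs. The 210 pairs among 21 immediate early genes had a median rho of 0.21, and 31.0% of them reached 0.3. All these correlations are taken over the same 75 cells, whose genes share a library and its depth, and most chaperone values are sparse, so a weak rho is no finding.

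**Figure D2:**
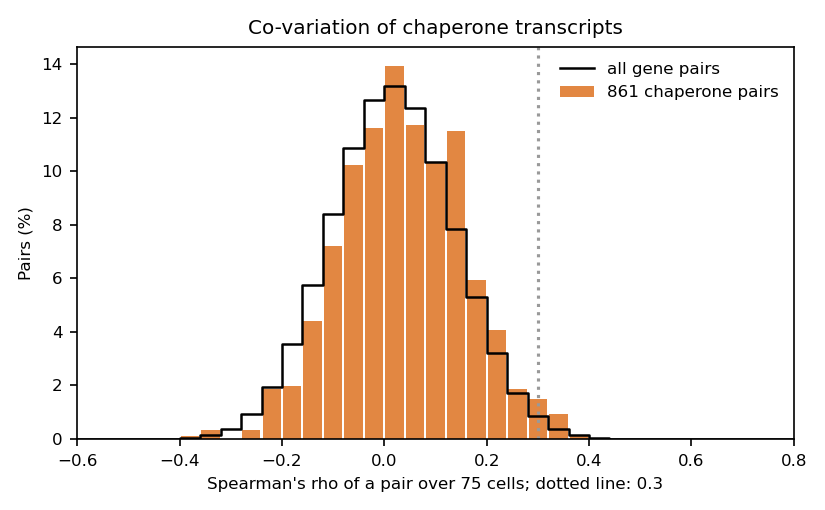
Percent of pairs by Spearman's rho over 75 cells, for 861 pairs of chaperone genes (filled) and for all 11212480 gene pairs (line). The outlines overlap widely, with the filled one slightly to the right: 61.9% of chaperone pairs and 55.3% of all pairs lie above 0. At or beyond the dotted line at 0.3 lie 1.74% of chaperone pairs and 0.913% of all pairs.

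Of the 10 highest pairs, 7 joined members of different groups and 3 members of the same group. Most of the 861 pairs joined different groups, so this split does not show that high pairs favoured crossing groups. The largest same-group sets were 55 pairs of J proteins of the cytosol and nucleus, 28 ER pairs, and 21 pairs each of CCT and mitochondrial members. Cct3 with Hspa1a had the highest rho (0.38), followed by Dnajb12 with Dnajc3, both ER J proteins (0.36), Dnajb14 with Hspa1a (0.36), Hsp90b1 with Hsph1 (0.35) and Dnajb12 with Hspa5 (0.34). Cct4 with Dnaja1, Dnajc18 with Dnajc5 (the vesicle protein CSP alpha), Dnajb11 with Hsph1, and Dnajc3 with each of Dnajc19 and Dnajc15 (both J proteins of mitochondrial import) lay between 0.34 and 0.32. At the other end stood Cct2 with Dnajb9 (-0.36), Dnajb6 with Hspa5 (-0.34), Dnaja2 with Hspa8 (-0.33), Dnajb6 with Hsph1 (-0.32) and Dnajb9 with Dnajc7 (-0.27). Within groups the median rho was 0.05 for the 21 CCT pairs, with 0 pairs at 0.3, and 0.10 for the 28 ER pairs, with 2 at 0.3. Among the 10 pairs of Hspa1a, Hspa1b, Hsp90aa1, Hsph1 and Dnajb1 the median was 0.13, 9 lay above 0, and the highest, at 0.27, was Hspa1a with Hspa1b. The share of pairs at 0.3 depended on which cells were taken: it was 8.26% in the 38 cells with most genes above 0 and 5.00% in the other 37, where all gene pairs gave 4.49% and 4.10%.

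Fos and Egr1 were high in most cells and varied together. Fos ran from 0.3 through 1477 to 19992 CPM (mean 2510 ± 3264), and Egr1 from 0 through 1062 to 10769 CPM (mean 2477 ± 2994, SD, n = 75 for both). At its widest gap on the log2 scale, looked for after the values were seen, Egr1 left 25 cells at 57.8 CPM or less and 50 cells at 273.3 CPM or more. The rho of Fos with Egr1 was 0.56, and each had a rho of -0.24 with the number of genes detected.

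A single chaperone gene, Dnajb1, reached a rho of 0.3 with Fos and with Egr1, and with Fos it lay at the mark itself, at 0.303, with 0.298 after thinning to equal depth and 0.292 given genes detected. Of the 54 members above 0 in at least 8 cells, 1 reached a rho of 0.3 with Fos, beside 0.707% of all 8350 genes at that threshold, and 1 reached it with Egr1, beside 0.647%. Dnajb1 was that member in both cases. No member lay at -0.3 or lower with either, a mark passed by 0.982% and 1.07% of all genes. The median rho of the members was -0.01 to Fos and -0.05 to Egr1, beside -0.03 for all genes to each. Below 0 lay 31 members for Fos (57.4%, beside 60% of all genes) and 38 for Egr1 (70.4%, beside 59.2%).

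**Figure D3:**
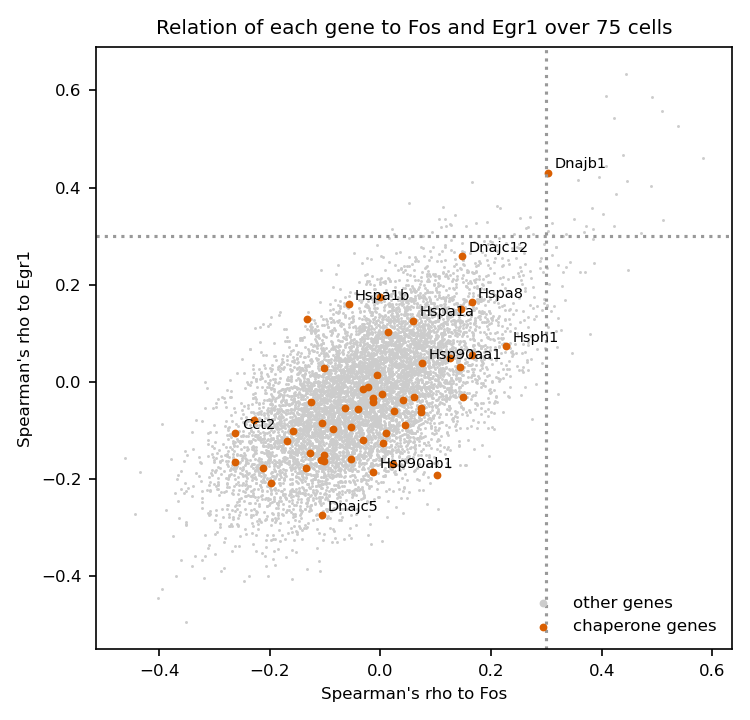
Spearman's rho over 75 cells of each gene with Fos (horizontal) and with Egr1 (vertical); orange points are the 54 chaperone genes above 0 in at least 8 cells, grey points the other genes at that threshold, and dotted lines mark 0.3. Dnajb1 is the orange point at the upper right, at 0.30 and 0.43, and the other chaperone genes lie inside the grey cloud.

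Dnajb1 had a rho of 0.43 with Egr1, the 12th highest of 8350 genes, and of 0.30 with Fos, the 55th highest. It is named as the highest of 54 members, so the values describe an extreme. Among the 3 cells with most Dnajb1, Egr1 was 9649.4 CPM where Dnajb1 was 3089.8, 6308.4 CPM where it was 2196.1, and 3778.5 CPM where it was 1876.1. All 3 lie on the high side of the Egr1 gap. The rho with Egr1 was 0.41 to 0.45 when any 1 cell was left out, 0.53 in the 38 cells with most genes above 0 and 0.37 in the other 37. Within the 50 cells over the Egr1 gap it was 0.27, and within the 25 under it 0.44. Most cells under the gap had both Dnajb1 and Egr1 below 10 CPM, so the 0.44 ranks mainly weak values. With Fos the rho of Dnajb1 was 0.27 to 0.34 when any 1 cell was left out, so that leaving out 1 cell can take it under 0.3. It was also less even across cells, at 0.58 in those 38 cells and 0.05 in the other 37.

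The other members closest to Fos were Hsph1 (0.23), Hspa2 (0.17), Hspa8 (0.16), Hspa13, Dnajc12 and Dnajb9 (0.15 each), Dnajc15 (0.14), Hsp90b1 (0.13) and Dnajc24 (0.10). For Egr1 they were Dnajc12 (0.26), Dnajc14 (0.17), Hspa8 and Hspa1b (0.16 each), Dnajb9 (0.15), Dnajc9 and Hspa1a (0.13 each), Dnajc10 (0.10) and Hsph1 (0.07). Hsp90aa1, another HSF1 target, had a rho of 0.04 with Egr1. Some of the members just named were sparse: Dnajc12 was above 0 in 8 cells, Dnajc9 in 13, and Hspa2, Hspa13 and Dnajc24 in 14 each. The lowest members were Dnajc2, a ribosome-bound J protein, and Cct2 (-0.26 each), Cct6a (-0.23), Dnajb12 (-0.21) and Cct4 (-0.20) for Fos, and Dnajc5 (-0.27), Cct4 (-0.21), Dnajc24 and Hsp90ab1 (-0.19 each) and Dnaja1 (-0.18) for Egr1. Apart from that of Dnajb1, all of these lie between -0.3 and 0.3 over the 75 cells. Split at the Egr1 gap, Hspa8 had a rho with Egr1 of -0.08 under it and -0.14 over it. Its 0.16 over all cells was thus not found on either side. For Hspa1b the values were 0.001 under the gap and 0.04 over it, and for Hspa1a 0.41 and 0.06.

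**Figure D4:**
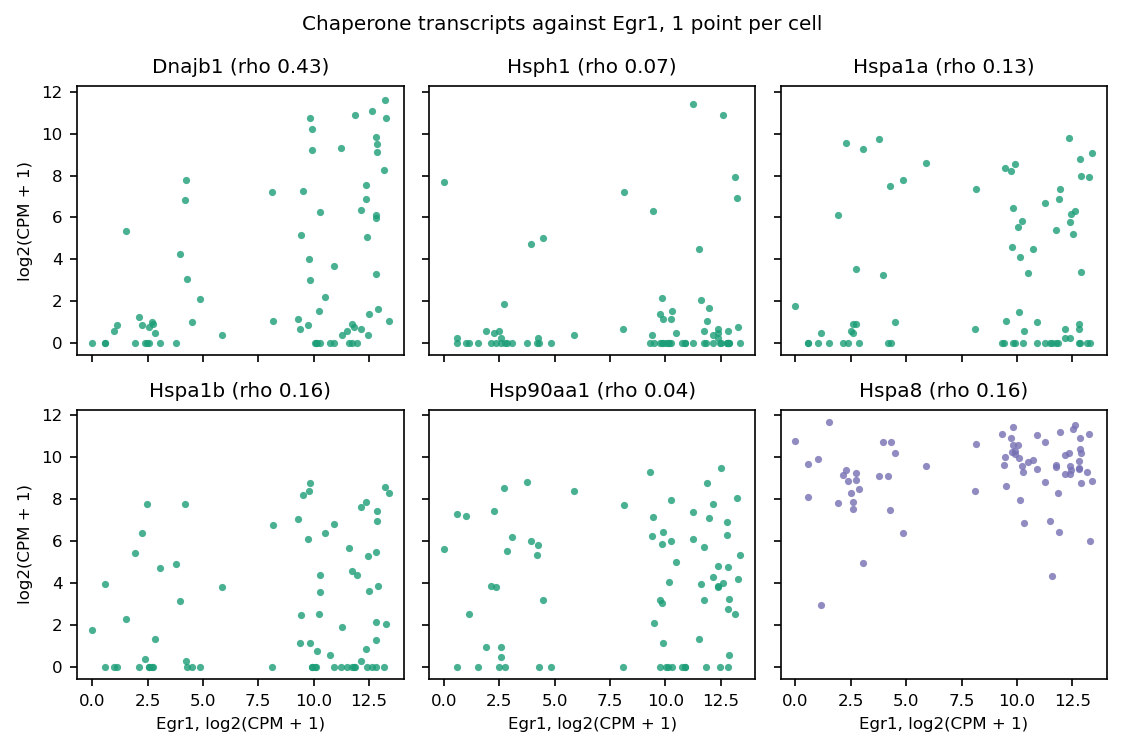
Level of 6 chaperone genes (vertical, log2(CPM + 1)) against Egr1 (horizontal, log2(CPM + 1)), 1 point per cell, 75 cells per panel. Egr1 leaves an empty stretch between 57.8 and 273.3 CPM, the cells highest in Dnajb1 lie to the right of it, and cells with much Hspa1a, Hspa1b or Hsp90aa1 lie on both sides.

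A score, the mean over Hspa1a, Hspa1b, Hsp90aa1, Hsph1 and Dnajb1 of each gene's standardised log2(CPM + 1), put the inducible members into 1 value per cell. Its rho was 0.31 with Egr1 and 0.23 with Fos. Without the 2 cells farthest from the median score these were 0.26 and 0.18. Taken singly, Dnajb1 had the highest rho with Egr1 of the 5 members (0.43), and the others had 0.04 to 0.16. With Fos the members ran from -0.06 (Hspa1b) to 0.30 (Dnajb1). A score without Dnajb1 was not compared with either gene. Each member had a rho of 0.16 to 0.27 with the score of the other 4, so the score averages genes that are only loosely linked. Within the 50 cells over the Egr1 gap its rho with Egr1 was 0.15. Within the 25 under it, where most Egr1 values lay below 10 CPM, it was 0.30. A score of 8 ER members, Hspa5 and Hsp90b1 among them, had a rho of 0.12 with Fos and 0.02 with Egr1, and a score of the 7 CCT subunits -0.14 and -0.21. The inducible score had a rho of 0.19 with the ER score and 0.18 with the CCT score, and the ER and CCT scores 0.08 with each other.

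The gene outside the set that came closest to the inducible score was Atf3, a transcription factor of the ATF/CREB family that is itself induced by many stresses. Atf3 ran from 0 through 42.6 to 6409.6 CPM, mean 764 ± 1383 (SD, n = 75), and its rho with the score was 0.54, or 0.54 in the 38 cells with most genes above 0 and 0.63 in the other 37. Its rho was 0.48 with Dnajb1, 0.63 with Egr1 and 0.44 with Fos. Of 4694 other genes above 0 in at least 20 cells, 46 reached 0.3 with the score (0.98%) and 16 lay at -0.3 or lower (0.341%). After Atf3 came Sik1, a salt-inducible kinase (0.42), the small nuclear RNA U1 (0.41), Mdm4, a regulator of p53 (0.40), the phosphatase Ptp4a1 (0.39), 2410002O22Rik (0.39), the TGF-beta-induced factor Klf10 (0.39), Gm12346 (0.38), the protease Adam19 (0.37) and the Golgi protein Golgb1 (0.36). At the low end were the zinc transporter Slc39a1 (-0.37), Dvl3 of Wnt signalling (-0.36), the lipid carrier Apoe (-0.34), Lrrc25 (-0.33) and Adap2 (-0.33). All these genes, Atf3 included, are named as the ends of a ranking of 4694, so the values describe extremes. Some are weak: Sik1 was at 10 CPM or more in 7 cells, U1 in 15 and Gm12346 in 3, beside 41 for Atf3.

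**Figure D5:**
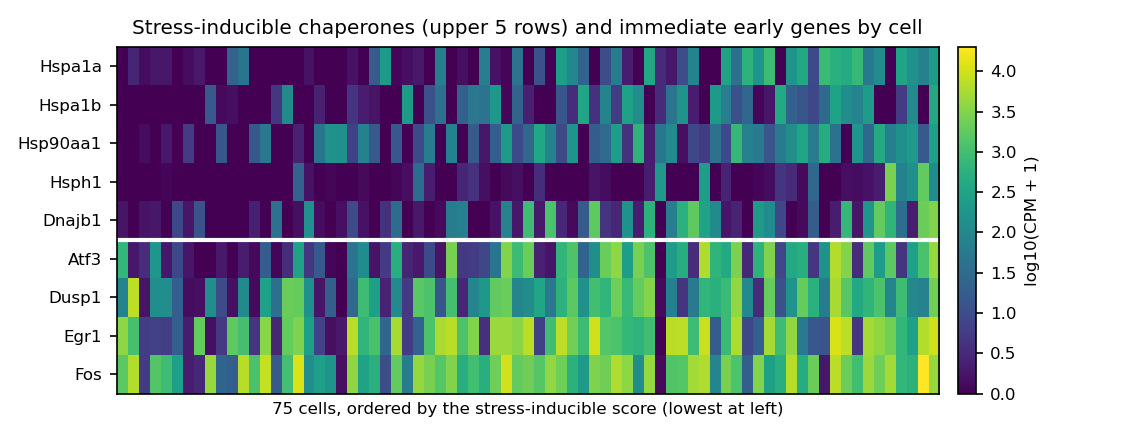
Level, as log10(CPM + 1), of the 5 stress-inducible chaperone genes (upper rows) and of Atf3, Dusp1, Egr1 and Fos (lower rows) in 75 cells ordered by the score of the upper 5 from lowest at the left. Chaperone colours thicken to the right by construction of the order, Atf3 follows it most closely of the lower rows (rho 0.54), and bright and dark Fos cells occur along the whole width (rho 0.23).

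Other genes of the folding pathway were counted from lists of their own. Of 4 regulators of the heat shock response 3 had values: Hsf1, the master factor, was above 0 in 9 cells, Hsf2 in 43, and Hsbp1, a small inhibitor of HSF1, in 60. Of 30 genes listed as HSP70, HSP90 and CCT cochaperones 22 had values. That list is loose, since it also takes in the CCT subunit Tcp1 and the chaperones Cryab and Serpinh1. In it 6 genes were above 0 in at least 50% of cells. None of the 21 above 0 in at least 8 cells reached a rho of 0.3 with the score, for a median of -0.01. The most abundant were St13, an HSP70 partner (740 ± 775 CPM), Ptges3, the HSP90 cochaperone p23 (259 ± 234 CPM), Tcp1 (239 ± 490 CPM) and the prefoldin subunit Pfdn5 (210 ± 339 CPM; SD, n = 75 for each). All 18 genes of ER folding and its stress response had values, 12 were above 0 in at least 50% of cells, 0 reached 0.3 with the score and their median was 0.06. Highest were the lectin chaperone Canx (2269 ± 1987 CPM) and the disulfide isomerases Pdia3 (828 ± 917 CPM) and Pdia6 (826 ± 994 CPM), with Calr, the soluble lectin chaperone, at 500 ± 609 CPM (SD, n = 75 for each). Of the 21 measured immediate early genes, 3 reached 0.3 with the score, Atf3, Dusp1 (0.33) and Egr1, and the median was 0.17. The summed cardiomyocyte markers had a rho of -0.19 with the score and the summed macrophage markers of -0.16.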

How the data were processed

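Per the labels' protocols, a Fluidigm C1 chip captured the cells, cDNA was made with SMARTer chemistry and libraries with Nextera XT. There are no molecular identifiers and strand is lost, so reads of a gene and an antisense partner cannot be told apart. The authors deposited CPM with 1 decimal, covering 76 libraries and 9235 genes. No gene in that list was above 0 in fewer than 5 of the 75 cells. A gene without values here may therefore have been read in fewer cells, and its absence from the list was not tested further. Per the submitters' processing notes STAR 2.3.0, HTSeq 0.6.0 and mm9 were used, and no source used here names the annotation. Every column summed to 1000000 CPM within rounding, so a gene's CPM is relative to the genes listed. No raw counts were used. Reads per library were estimated from the step between low CPM values. In all but 2 libraries 100% of the low values were whole multiples of the step within 0.051 CPM, and the lowest share was 87.6%. Of 10 simulated libraries 9 were recovered within 1%. These depths served for thinning only.

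Members and lists were chosen with earlier results of these data known. Spearman's rho was taken over 75 cells with numpy 2.4.6, pandas 2.3.3 and scipy 1.17.1 in Python 3.11.15, for genes above 0 in at least 8 cells (with Fos or Egr1) or 20 cells (pairs, and genes compared with the score). Exon lengths are unions of GENCODE vM21 exons. Doublets were not called. The symbols of all 58 members matched the reference. Genes named are, per group, the 4 most abundant members, the 10 highest and 5 lowest pairs, members by rho with Fos and Egr1, and other genes by rho with the score, with the 4 most abundant genes of each other list. Exceptions, named after their values were seen, are Hspe1 and its promoter, Dusp1, the markers and, in the account of the ER group, Dnajb9 and Dnajb11. Alternatives changed the repeat library, the threshold, the correlation, the scores, the depth and the cells. Intervals cover the sampling of cells only.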

Additional observations from a re-analysis of the deposited data

How the results depend on the processing

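Of 97 alternatives tried, and 2 more chosen after seeing the data that split the cells at the Egr1 gap, 80 left the value close to the one reported (a rho within 0.1, a count or share of pairs within 1.5 times, the CPM share within 1 SD) and 19 moved it. The median rho over member pairs, 0.04, changed sign to -0.01 in the cells with fewer genes, within that tolerance. The count of 21 members above 0 in at least 50% of cells became 12 when cells were thinned to 250000 reads, 9 at a threshold of 10 CPM and 43 at a share of 25% of cells. The percent of member pairs with a rho of at least 0.3, 1.74, became 3.70 without the lower quartile of cells by genes detected, 5 in the cells with fewer genes and 8.26 in those with more. Fewer cells give wider scatter of rho, and the share of all gene pairs at 0.3 was also higher there, at 2.03%, 4.10% and 4.49%. The count of members at 0.3 with Fos, 1, became 0 after thinning and 0 given genes detected, with the rho of Dnajb1 at 0.298 and 0.292 beside 0.303. It was also 0 at a rho of 0.4, 2 without the lower quartile (Dnajb1 and Hspa2) and 2 in the cells with fewer genes (Cct3 and Hsp90b1, without Dnajb1). For Egr1 the count of 1 became 2 without the lower quartile (Dnajb1 and Dnajc12) and 2 in the cells with fewer genes (Dnajb1 and Hsp90b1). The rho of the inducible score with Fos, 0.23, became 0.40 without the lower quartile, 0.11 with fewer genes and 0.41 with more. With Egr1 the 0.31 became 0.49 in the cells with fewer genes and 0.15 over the Egr1 gap. The rho of the ER score with Fos, 0.12, became 0.23 given genes detected. The cause of these shifts was not tested. Of the values of members above 0, 38.5% lay below 10 CPM, so counts of weak members depend on the threshold. No paired analysis was possible because the cells form a single group.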
